A study of Homo sapiens with 6 samples.

Results

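The chromatin compartments of T47D cells after 16 h of estradiol (T16) were set against those after 24 h (T24), over 26484 autosomal bins of 100 Kb, which are all autosomal bins with a score other than 0 in each of the 6 libraries of the series. The autosomes hold 28823 bins, and the files, which include chromosome X, hold 30376. The T47D line is an established model of estrogen receptor-positive breast cancer. Parental cells were starved of hormone for 72 h and were then given 100 nM β-estradiol (E2) for 1, 4, 16 or 24 h (T1, T4, T16, T24), the starved cells without E2 being T0. The sixth library came from a tamoxifen-resistant T47D line (TamR), which carries an untreated label, whereas the methods describe TamR cells as kept in 100 nM tamoxifen. All 6 libraries were made by tethered conformation capture (TCC), a Hi-C protocol with ligation on a solid support.

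Chromatin is partitioned into compartment A, which is gene-rich, transcribed and early replicating, and compartment B, which is gene-poor, mostly silent and often bound to the nuclear lamina. Regions of one compartment contact one another more often than regions of the other, also between chromosomes, and the first eigenvector of the contact matrix gives each bin a score that is positive in A and negative in B. In estrogen receptor-positive breast cells, E2 brings the receptor to enhancers within minutes and drives entry into the cell cycle over the following day.

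Each condition has 1 library. No difference between T16 and T24 therefore has a replicate check, no test was made, and while the study states in general that its data were replicated, the sources do not say how T47D cultures were combined in a library. The scores were multiplied by 1000 here and are given in those units. They are scaled within each library, with an SD over bins of 6.03 to 6.05, so a higher score at T24 means higher relative to the other bins of that library. The files hold no contact counts, and the depth of each library is unknown. The 8 luminal epithelial marker genes lay in A at both times and the 5 neuronal marker genes in B at both times. The markers of other cell types were not all in B. Of 4 T and B cell genes 2 lay in A at both times, as did the 2 endothelial genes with a score. Intervals are 95% intervals over bins and are too narrow, since neighbouring bins are not independent. A bin is said to have risen or fallen where T24 minus T16 was above 1 or below -1.

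Because TCC counts ligations between ends cut by HindIII, the sequences around a cut site are printed for 4 bins that carry the results, from the plus strand of GRCh37, with the site AAGCTT in capitals. They are the middle bins of the longest rising run (chromosome 19, chr19:23151206-23151325, in a bin with 39.6% GC) and of the longest falling run (chromosome 13, chr13:23251768-23251887, 38.9% GC), the bin with the largest rise (chr19:9353348-9353467, 43.1% GC), and a rising bin of the opposite kind, from the A end of the scale (chr16:758016-758135, 63.6% GC).
Rising zinc finger run, chromosome 19: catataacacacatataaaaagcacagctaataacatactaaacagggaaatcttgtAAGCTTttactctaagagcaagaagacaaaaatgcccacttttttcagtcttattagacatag
Falling run, chromosome 13: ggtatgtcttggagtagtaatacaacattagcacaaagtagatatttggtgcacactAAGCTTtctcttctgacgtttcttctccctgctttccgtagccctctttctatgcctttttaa
Largest rise, olfactory receptor bin: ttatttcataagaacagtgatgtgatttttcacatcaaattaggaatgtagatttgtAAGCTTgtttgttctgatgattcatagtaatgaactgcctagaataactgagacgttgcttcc
Rising gene-dense bin, chromosome 16: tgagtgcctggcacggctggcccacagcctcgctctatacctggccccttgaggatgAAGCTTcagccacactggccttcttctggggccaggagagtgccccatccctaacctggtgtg
The first of these windows has 31.7% GC and the last 62.5% GC. Their bins hold 32 and 10 HindIII sites, against a median of 29 over all bins.

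From T16 to T24, 2496 bins rose, or 9.42% (9.08 to 9.78%), and 2346 fell, or 8.86% (8.52 to 9.21%). The scores of the libraries at T16 and T24 correlated across the 26484 bins with a Pearson's r of 0.992, the points sharing a genome, a cell line and a pipeline. The median difference was -0.032, the SD 0.776 and the range -4.02 to 4.46. The preceding interval was quieter, with an SD of 0.530 from T4 to T16, where 3.30% of bins rose and 2.42% fell, and 0.502 from T1 to T4. The interval from T0 to T1 lay between, with an SD of 0.677 and shares of 7.11% and 6.26%. The SD was 0.776 to 1.02 in the 4 pairs of parental libraries that include T24 and 0.502 to 0.750 in the 6 pairs that do not. In 92.8% of the risen bins T24 was the highest of the 5 parental libraries, and in 88.1% of the fallen bins it was the lowest. T16 was at the opposite extreme in 37.1% and 40.7% of them. In the risen bins the median distance from the mean of T1 and T4, which had no part in the choice of bins, was 1.16 at T24 and -0.23 at T16. In the fallen bins it was -1.10 at T24 and 0.20 at T16. Bins picked by T24 minus T16 tend to put these 2 libraries on opposite sides of any other, so these shares and distances only describe the bins picked.

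The difference depended on where a bin stood on the compartment scale, and the dependence was a curve rather than a slope. In the decile of bins with the lowest T16 scores, the most strongly B bins, the median difference was 0.67 (0.65 to 0.70), 674 of 2649 bins rose and 0 fell. It passed through 0.02 in the third decile, was lowest at -0.49 (-0.51 to -0.45) in the sixth, where 56 bins rose and 524 fell, and returned to 0.54 (0.51 to 0.58) in the decile with the highest scores, where 719 rose and 34 fell. The straight-line slope on the T16 score was -0.0067, which describes none of this. The 2 extreme deciles exceeded the 2 middle deciles by 1.05. With the mean of T1 and T4 as the scale, which shares no library with the difference, the same contrast was 1.01. It was 0.31 from T4 to T16 and -0.36 from T1 to T4, where the middle of the scale moved up and both ends down. Across the parental pairs it was 0.961 to 1.33 with T24 and -0.356 to 0.306 without. The T24 scores were accordingly more skewed, 0.703 against 0.440 to 0.525 in the other parental libraries, and reached 20.1 at the A end, where T16 reached 18.8.

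**Figure D1:**
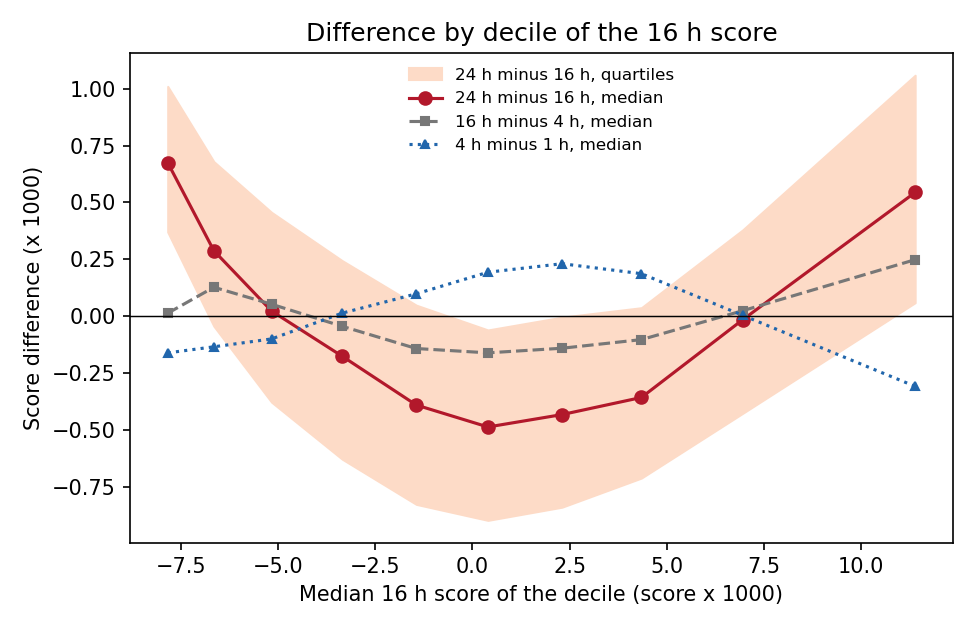
Median score difference (y axis, score x 1000) of the bins in each decile of the T16 score, placed at the decile's median T16 score (x axis), for T24 minus T16 with its quartiles as a band, T16 minus T4 and T4 minus T1. T24 minus T16 runs from 0.67 at the B end through -0.49 near the border to 0.54 at the A end, and T4 minus T1 curves the other way.

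The risen bins thus came from both ends of the scale. Of 5321 strongly B bins, with T16 below -6, 999 rose and 18 fell. Of 3203 strongly A bins, with T16 above 8, 762 rose and 53 fell. Between these limits 735 of 17960 bins rose and 2275 fell. The 1013 risen bins that were in A at T16 had a median GC content of 50.5%, and 78.4% of them held the start of a protein-coding gene. The 1483 risen bins in B at T16 had a median GC content of 37.9%, and 18.2% held a gene start. The 2346 fallen bins resembled the average bin, with 39.5% GC against 39.9% over all bins and a gene start in 35.9% against 38.1%.

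The border between A and B lies where the difference was most negative. From T16 to T24, 777 bins (2.93%) changed from A to B and 186 (0.702%) from B to A, so that A held 12456 bins at T16 and 11865 at T24. From T4 to T16 the counts were 382 and 216, and from T1 to T4 they were 148 and 362. The switched bins were weak ones. The A to B bins had a median score of 0.44 at T16 and -0.42 at T24, and 388 of the 777 differed by more than 1. When the median of each library was taken as the border in place of 0, 1.51% of bins switched in each direction. Equal counts follow from that border, which puts as many bins in A at T24 as at T16, so the value says how many bins switched and nothing of the excess. Of the 777 bins, 428 had been in A at T0, T1 and T4 alike, and 104 of the 186 B to A bins had been in B at all 3. More bins switched from A to B than back on 19 chromosomes and fewer on 3.

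GC content and gene content followed the same curve. Across the 26484 bins the difference correlated with GC content with a Pearson's r of 0.158 but a Spearman's rho of 0.057, and with the number of gene starts with r of 0.121 and rho of 0.038. Earlier intervals had values of r with GC content not far from this in size: 0.124 from T4 to T16, -0.122 from T1 to T4 and 0.123 from T0 to T1. For gene starts r was 0.035, -0.114 and 0.102 in that order. The points share chromosomes and a score that itself correlated with GC (r = 0.729 at T16). In the decile with the highest GC content, above 48.3%, the median difference was 0.45 and 24.8% of bins rose, whereas in the sixth decile, from 39.9 to 41.2%, it was -0.22 and 12.5% fell. In the decile with the lowest GC content it was 0.09. Bins with 5 or more gene starts had a median difference of 0.60 and 30.9% of them rose, against 8.73% of bins with no gene start. To separate this from the curve, each bin was also measured relative to bins of like score, by subtracting the median difference of the bins in the same hundredth of the mean of T1 and T4. On that measure the gene-dense bins had a median of 0.01, while the decile with the highest GC content kept 0.13 and the correlation with GC was 0.113. Within deciles of the T16 score the correlation with GC was higher, 0.206, and within deciles of the mean of T1 and T4 it was 0.185. A link with GC content beyond the curve thus remained on each measure. The number of HindIII sites in a bin, which sets how many ligations it can give, correlated with the difference with r of -0.111 and with GC content with r of -0.522. Its part in the difference was not tested.

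Chromosomes differed as wholes. The mean difference was highest on chromosome 19 (0.751), followed by chromosomes 16 (0.577), 17 (0.426), 21 (0.372) and 22 (0.367), and lowest on chromosomes 2 (-0.218), 13 (-0.213), 4 (-0.202) and 6 (-0.196). All 8 of chromosomes 15 to 22 had a mean above 0, and 8 of the 12 longer than 130 Mb a mean below 0. On chromosome 19, 202 of 557 bins rose and 15 fell, and on chromosome 2, 97 of 2351 rose and 261 fell. Over the 22 autosomes the mean difference correlated with length with r of -0.740, with GC content with r of 0.810 and with genes per Mb with r of 0.727, 3 properties that go together. Relative to bins of like score the correlation with length was -0.659. Chromosome 18, which is short but gene-poor with 3.41 genes per Mb and 39.8% GC, had a mean of 0.229. Chromosome 2 has a similar GC content, 40.2%, and a mean on the other side of 0. Chromosome means accounted for 8.92% of the variance of the difference, against 1.77% from T4 to T16, 5.25% from T1 to T4 and 4.45% from T0 to T1. The chromosome means of the earlier intervals also went with GC content, with r of 0.764 from T4 to T16 and of -0.911 from T1 to T4.

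**Figure D2:**
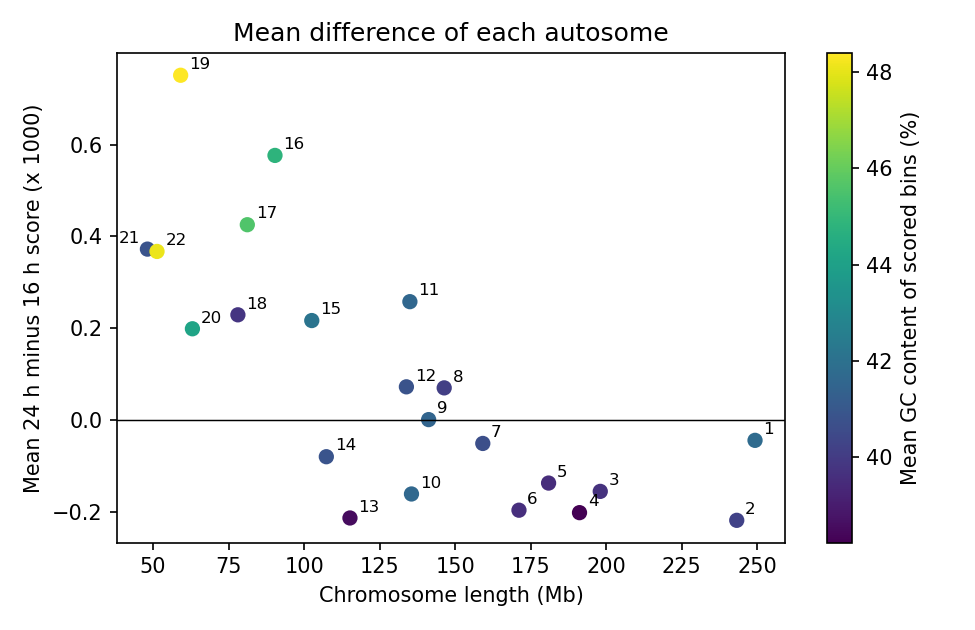
Mean T24 minus T16 score difference (y axis, score x 1000) of each autosome against its length in Mb (x axis), with the mean GC content of its scored bins as colour and the chromosome number beside each point. Chromosome 19 is highest at 0.751 and chromosome 2 lowest at -0.218.

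Within chromosomes, the rises were most frequent beside centromeres and at chromosome ends. Of 1687 bins within 5 Mb of the centromere gap, taken as the longest unsequenced stretch of each chromosome, 27.8% rose and 4.68% fell. Their median difference was 0.38 and, relative to bins of like score, 0.41, although their median score at T16 was -1.30, close to where the curve is negative. The median was above 0 on 19 of 22 chromosomes. From T4 to T16 the same bins had a median difference of 0.03 and from T1 to T4 of -0.02. Of 1883 bins within 5 Mb of a chromosome end, 26.3% rose and 4.46% fell, with a median of 0.42 and of 0.23 relative to bins of like score. These end bins had moved before as well, with a median difference of 0.24 from T4 to T16, -0.13 from T1 to T4 and 0.17 from T0 to T1. Those near the ends are rich in GC (median 46.9%), whereas those near centromeres are average (40.2%). Bins next to centromeres border on sequence that reads cannot be placed in uniquely, and the part of this in the rises was not tested.

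Neighbouring bins differed alike. The correlation of the difference between adjacent bins was 0.621 over 26288 pairs, 0.426 at 1 Mb and 0.180 at 5 Mb. From T4 to T16 the values at 0.1 and 1 Mb were 0.261 and 0.129, from T1 to T4 they were 0.300 and 0.168, and from T0 to T1 0.397 and 0.167. Neighbouring bins have like scores and so share a place on the curve. Relative to bins of like score the correlations were 0.475 and 0.310, still above the raw values of the other intervals. Means over 1 Mb blocks accounted for 60.8% of the variance of the difference, against 29.3% from T4 to T16. The risen bins formed 1480 runs of consecutive bins, of which 73 were at least 5 bins long, and the fallen bins 1429 runs, of which 65 were. These long runs held 21.0% and 22.4% of the bins of their direction. In the 3 earlier intervals between neighbouring time points, 571 to 1882 bins per direction passed the threshold, and 0 to 19 runs per direction were that long. Those runs held 0 to 6.80% of the bins of their direction. Fewer bins passed there, which by itself makes long runs rarer. Of the 73 long rising runs, 23 touched the 5 Mb beside a centromere gap and 26 the 5 Mb at an end, compared with 2 and 3 of the 65 falling runs.

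**Figure D3:**
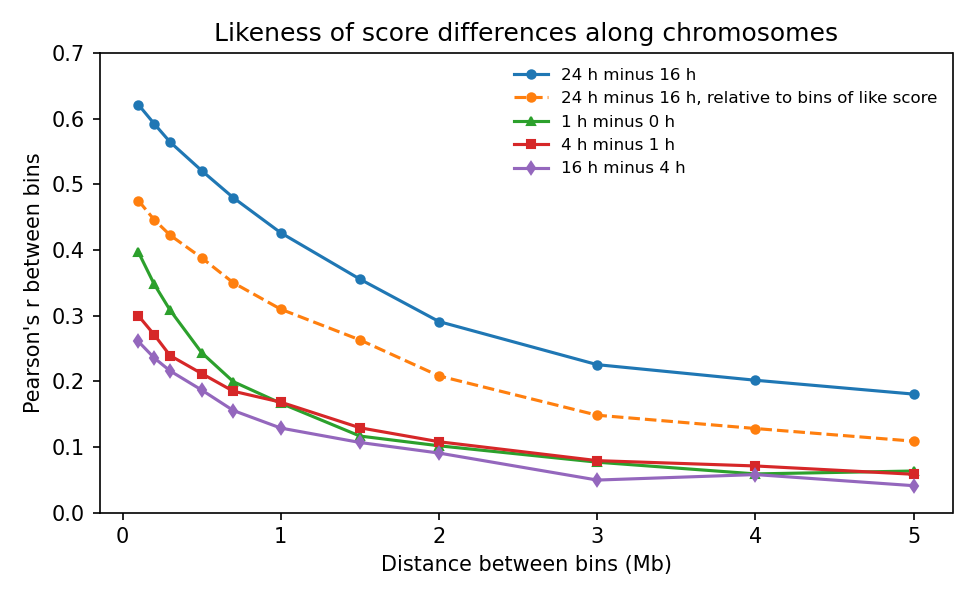
Pearson's r (y axis) between the score differences of bins a given distance apart on one chromosome (x axis, Mb), for 4 successive intervals and for T24 minus T16 relative to bins of like score. T24 minus T16 starts at 0.621 for adjacent bins and stays above the other 3 intervals at every distance drawn.

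The longest rising run lay at chr19:21700001-24600000, in the pericentromeric cluster of KRAB zinc finger genes, which encode repressors of transposable elements and reside in chromatin carrying H3K9me3. Its 29 bins hold the starts of 20 protein-coding genes, from ZNF100, ZNF43, ZNF208, ZNF257 and ZNF676 onward. The mean score of the run was -3.21 at T0, -3.05 at T1, -3.48 at T4 and -2.88 at T16, then -0.41 at T24. The 4 earlier parental libraries lay within 0.597 of one another, whereas T24 stood 2.47 above T16. As the runs were chosen by T24 minus T16, a gap between these 2 libraries follows from the choice, in which T0, T1 and T4 had no part. In A were 1 of the 29 bins at T16, 12 at T24 and 24 in TamR, whose mean was 1.08. The second run, chr19:56100001-57800000, lay in the zinc finger cluster near the end of the long arm, with 17 bins and 43 genes, the first being ZNF524, FIZ1, ZNF865, ZNF784 and ZNF580. Its mean was -2.50, -1.88, -2.45 and -1.67 from T0 to T16 and 0.00 at T24, and TamR stood far above all of them at 10.5. The third, chr6:57400001-58800000, abuts the centromere gap and holds no gene start, and its mean went from -7.77 to -5.92, all bins staying in B. The fourth, at chr8:47000001-48200000 beside another centromere gap, holds SPIDR, a gene of homologous recombination, and went from -2.46 to -0.86.

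The longest falling run lay 3.1 Mb from the centromere gap of chromosome 13 and the other 3 at least 37 Mb from one. The first, chr13:22100001-24300000, holds MICU2, a regulator of mitochondrial calcium uptake, the growth factor gene FGF9 and TNFRSF19, among others. Its mean was 1.28, 1.24, 1.45 and 1.78 from T0 to T16 and -0.02 at T24, and -2.99 in TamR. All 22 bins were in A at T16, 9 at T24 and 1 in TamR. At chr3:167700001-169800000, which holds GOLIM4, MECOM (a zinc finger transcription factor of blood stem cells), ACTRT3, MYNN and LRRIQ4 among 10 genes, the mean went from -1.83 to -3.35, with the earlier libraries between -1.84 and -1.44. At chr6:132600001-134500000, which holds 17 genes including MOXD1, STX7 and the trace amine receptor genes TAAR9, TAAR8 and TAAR6, it went from -2.72 to -4.56, while TamR stood at -0.03. At chr14:56000001-57400000, with KTN1, PELI2, TMEM260 and the homeobox gene OTX2, it went from 1.65 to 0.21, and 14 bins in A at T16 became 7. In all 4 of these runs T24 lay below each of the other 4 parental libraries, whose means spread by at most 0.653 within a run. That it lay below T16 follows from the choice of the runs.

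**Figure D4:**
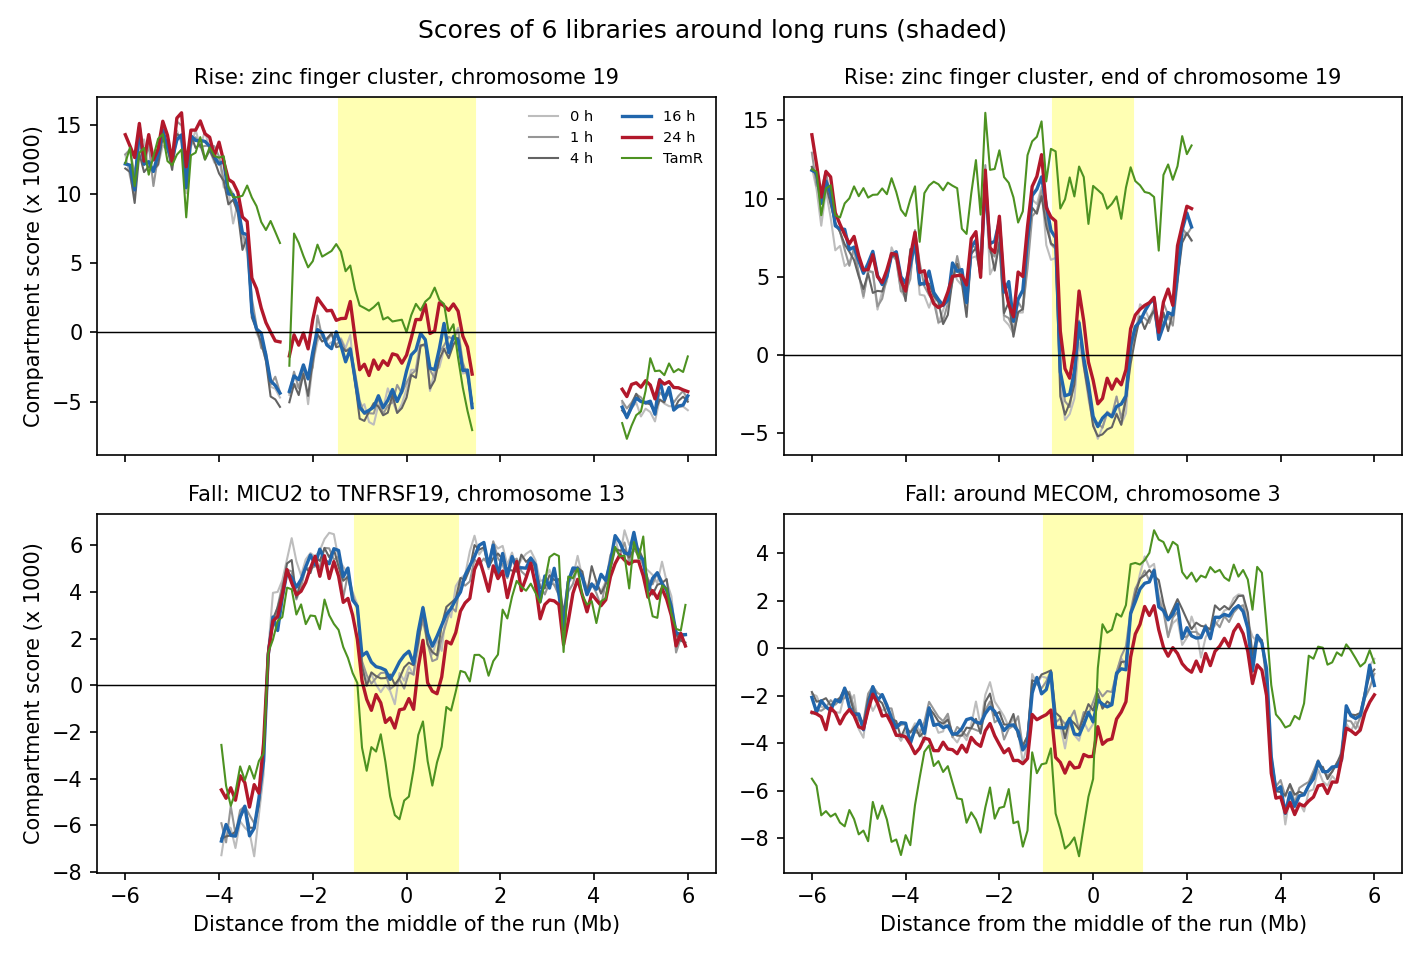
Compartment scores (y axis, x 1000) of the 6 libraries in 100 Kb bins around the 2 longest rising and the 2 longest falling runs, shaded, against the distance from the middle of the run in Mb (x axis), with gaps where bins have no score. Inside the shading the T24 line parts from the 4 other parental lines, with a mean gap to T16 of 2.47 in the first panel. The runs were chosen by T24 minus T16, so the gap between these 2 lines follows from the choice. The TamR mean over the run lies beyond that of T24 in the first 3 panels.

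Most bins that changed compartment did so alone or in short stretches, the longest being 11 bins from A to B and 5 from B to A. The A to B stretches at chr13:22300001-23400000 (11 bins, 0.93 at T16 and -1.02 at T24), chr7:46300001-47300000 (10 bins, 0.52 and -1.48) and chr9:110500001-111500000 (10 bins, 0.56 and -0.76) hold no gene start. In the second of these only 3 of 10 bins were in A at T0 and 1 at T1, so T24 returned to the compartment of the start of the series there, although to lower scores than the T0 mean of -0.33. The B to A stretches were chr15:87400001-87900000 (5 bins, -0.62 and 0.50), chr16:12600001-13100000 (5 bins, -0.71 and 0.38), with CPPED1 and SHISA9, and chr20:25800001-26200000 (4 scored bins, -0.97 and 0.81). In these 3 all bins had been in B at T0, T1 and T4. The mean of the chromosome 15 stretch at those times was -2.65, -2.13 and -1.75, so it had been rising at each earlier step.

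The bin with the largest rise, chr19:9300001-9400000, holds the olfactory receptor genes OR7D4 and OR7E24. Its score was -1.99, 0.01, -1.28 and -1.22 from T0 to T16, then 3.23 at T24 and 10.4 in TamR. The next were a bin at chr2:90400001-90500000 without a gene start (-3.97 to 0.22), and 2 gene-dense bins near chromosome ends that were already deep in A. At chr1:900001-1000000, with PLEKHN1, PERM1, HES4, the interferon-induced ISG15 and AGRN, the score went from 13.3 to 17.4, but it had been 16.6 at T1. At chr16:700001-800000, with RHOT2, RHBDL1, the ubiquitin ligase gene STUB1, JMJD8 and WDR24 among 11 gene starts, it went from 15.3 to 19.3 and had been 17.1 at T1 and T4. At chr10:38900001-39000000, with no gene start, it went from -8.36 to -4.55, but had been -5.29 at T0, -7.07 at T1 and -6.77 at T4. The largest fall was at chr10:51100001-51200000, with PARG, which removes poly(ADP-ribose), and FAM21D. Its score was 0.53, 1.61 and 0.43 at T0, T1 and T4, 3.86 at T16 and -0.16 at T24, so there it was T16 that stood apart. WASHC2A, at chr10:51800001-51900000, fell from 2.15 to -0.80. FAM21D and WASHC2A belong to a family of near-identical copies, among which reads can be split, and these 2 values are uncertain. The remaining large falls were at chr7:46800001-46900000 (0.55 to -2.14), chr6:133700001-133800000 (-4.35 to -7.03) and chr2:38000001-38100000 (2.94 to 0.26), all without a gene start.

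Gene by gene, 2880 of 18856 protein-coding genes, or 15.3%, started in a bin that rose and 1300, or 6.89%, in a bin that fell. Clustered gene families occupied few bins, and they are given by distinct bins as well. Of the 402 olfactory receptor genes, which are silent outside the nose and lie in B in most cells, 164 rose and 13 fell. They occupy 168 bins, of which 38.1% rose, against 9.42% over all bins, with a median difference of 0.82 and of 0.49 relative to bins of like score. The rise was not that of a single cluster. On chromosome 11, which has the most, the 66 bins had a median of -6.91, -7.22 and -7.14 from T1 to T16 and of -6.25 at T24, and 27 rose and 0 fell. The 21 bins on chromosome 1 had a median difference of 0.67, and 6 rose. Relative to bins of like score their median was only 0.17, against 0.56 on chromosome 11, 2.19 on chromosome 17 and -0.83 on chromosome 7. On chromosome 17, 5 of 6 bins rose, among them that of OR1E1 (2.54 to 4.92). The 9 bins on chromosome 7 went the other way, with a median of -0.997 and 4 falls.

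The 246 zinc finger genes of chromosome 19 occupy 130 bins, of which 49 rose and 7 fell, or 37.7% and 5.38%. Over all bins of chromosome 19 the share that rose was 36.3%. Their median difference by bin was 0.58, against a chromosome median of 0.65, and 0.71 relative to bins of like score. By gene the median was 0.45, and the median of T16 minus T4 for the same genes was 0.58. Of the genes, 209 were in A at T16 and 224 at T24. The largest differences were those of ZNF486 (-3.50 to 0.03), ZNF257 (-5.82 to -2.30), ZNF100 (-1.21 to 2.23) and ZNF729 (-5.39 to -1.99), whereas the first members in genome order, ZNF554 and ZNF555, share a bin that went from 11.9 to 11.7. Histone genes, whose clusters form a nuclear body of their own and which are transcribed in S phase, occupy 17 bins in A. Of these, 6 rose (35.3%, against 9.42% over all bins) and 0 fell, with a median of 0.65 and of 0.71 relative to bins of like score. The bin of H2BC18 and H3C13 on chromosome 1 went from 7.20 to 10.2, but had been at 9.03 at T1. That of H4C5 and H2AC8 on chromosome 6 went from 7.71 to 9.12, but had been at 9.37 at T0, above its T24 score, and at 8.38 at T1. Of the 9 bins of HOX genes, which set positional identity, 0 rose, 3 fell and 6 did not pass, with a median of -0.57 and of -0.50 relative to bins of like score. Over all bins 9.42% rose and 8.86% fell. The falls were both HOX bins of chromosome 2, the chromosome with the lowest mean, and 1 of 2 on chromosome 7. The 2 bins on chromosome 12 and the 3 on chromosome 17 did not pass. The HOXD bin with HOXD3, HOXD4 and HOXD1 was at 1.18, 2.04, 2.77 and 3.85 from T0 to T16 and at 2.37 at T24, and the bin of HOXA9 went from 4.09 to 2.73. The HOXC bin of HOXC13 and HOXC12, with 6.92 and 7.20, did not pass the threshold. Of 16 keratin bins 4 rose (25%, against 9.42% over all bins) and 0 fell. Among the risen were that of KRT7 (10.8 to 12.2) and a bin shared by KRT12, KRT20 and KRT23 (12.1 to 13.5). The bin of KRT80 stood at 10.1 and 10.4. The median of the keratin bins was 0.24, but -0.43 relative to bins of like score. Of 18 protocadherin bins, 1 rose (5.56%, against 9.42% over all bins), that of PCDH20 (-8.61 to -7.60), and 0 fell. PCDH15 (-7.29 to -6.75), PCDH8 (-5.43 to -5.13) and the shared bin of PCDHA5, PCDHA6 and PCDHA7 (5.06 to 4.32) did not pass.

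Genes of the estrogen response showed no common direction. Of 30 estrogen target genes 3 rose and 2 fell, or 10% and 6.67%, against 15.3% and 6.89% over all genes. Their median difference was 0.10, as over all genes. The bin of SLC7A5, an amino acid transporter, went from 12.0 to 14.4, that of CTSD, which encodes cathepsin D, from 12.5 to 14.4, and that of CCND1, which encodes cyclin D1, from 10.97 to 12.2. At T1 these 3 bins had stood at 13.2, 14.3 and 12.1. PKIB fell from -0.98 to -2.19. TFF1 stood at 10.6 at both times, and GREB1 at 5.36 and 4.56, below all 4 earlier parental libraries (5.01 to 5.54). Of 18 immediate early genes 3 rose, namely IER2 (11.4 to 13.7), FOSB (14.5 to 15.7) and ZFP36 (14.2 to 15.2), all on chromosome 19, where 36.3% of bins rose. The share of 16.7% compares with 15.3% over all genes, and relative to bins of like score FOSB was at -0.03 and ZFP36 at 0.12. FOS (8.59 and 8.56), EGR1 (8.74 and 9.32) and KLF6 (-0.58 and -1.51) did not pass. Among 15 luminal transcription factors the median was -0.42, and -0.06 relative to bins of like score. TBX3 fell from 2.48 to 1.28 and TFAP2B, deep in B, rose from -7.65 to -6.49, while ESR1, the estrogen receptor gene, stood at 3.68 and 3.26, FOXA1, its pioneer factor, at 0.88 and 0.69, MYB at 4.67 and 3.76 and TFAP2C at 3.25 and 2.44.

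Of 23 steroid receptor coregulators, 9 rose (39.1%, against 15.3% over all genes) and 0 fell. They had a median of 0.49 and of 0.34 relative to bins of like score. Their median score at T16 was 9.28, within the strongly A range, where 23.8% of bins rose. The largest difference was that of KDM4B, a histone demethylase and a partner of the estrogen receptor, whose score was 12.6, 13.5, 12.1 and 11.9 from T0 to T16 and 15.2 at T24. PRMT1 (15.4 to 17.0), ARID1A (13.5 to 14.99) and PPARGC1A, which is in B (-7.51 to -5.84), rose as well, whereas NCOA1 stood at 4.86 and 3.92 and NCOA3 at 6.09 and 5.89. Of 51 cell cycle and replication genes 8 rose (15.7%, against 15.3% over all genes) and 0 fell, with a median of 0.20 on both measures. AURKB (12.5 to 14.4), CDC20 (12.1 to 13.9) and POLE (13.1 to 14.3) were at the A end. PCNA, the replication clamp, was at -1.52, -1.08, -1.55 and -1.67 from T0 to T16 and at -0.11 at T24, the highest of the 5. MCM2 stood at 9.37 and 10.1 and CCNE1 at 3.89 and 3.67. Of 76 ribosomal protein genes 18 rose and 8 fell, or 23.7% and 10.5%, against 15.3% and 6.89% over all genes. Their median was 0.08, and -0.05 relative to bins of like score. RPL13 rose from 14.2 to 17.0, the shared bin of RPL3L and RPS2 from 17.1 to 19.2, and RPS12, inside the falling run of chromosome 6, fell from -1.09 to -3.23. RPL22 stood at 9.24 and 8.87 and RPL11 at 12.3 and 12.8. Of 23 mesenchymal and basal genes 2 rose, KRT14 and KRT17, which share a bin (13.7 to 15.1), and 2 fell, TP63 (1.21 to -0.36) and TGFB2 (-1.36 to -2.79). Each share was 8.70%, against 15.3% risen and 6.89% fallen over all genes. VIM stood at -2.81 at both times and ZEB1 at 0.68 and 0.79. All 36 neuronal genes were in B at both times. Of these, 4 rose, among them GRIN2A (-6.42 to -4.92), CDH8 (-7.17 to -5.98) and CSMD1 (-7.69 to -6.50), and 1 fell, GRIA2 (-4.03 to -5.18). These shares, 11.1% and 2.78%, compare with 15.3% and 6.89% over all genes. The median of the neuronal genes, 0.25, became -0.06 relative to bins of like score.

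**Figure D5:**
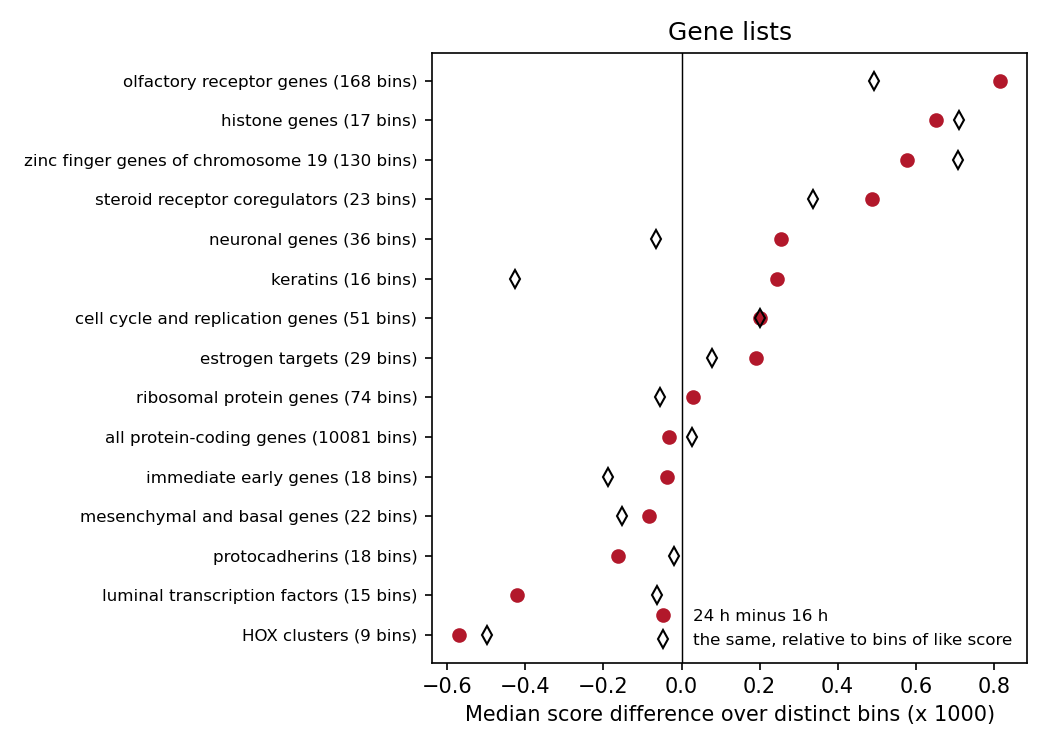
Median T24 minus T16 score difference (x axis, score x 1000) over the distinct bins of 14 gene lists and of all protein-coding genes (y axis, with the number of bins), as measured (circles) and relative to bins of like score (diamonds). Olfactory receptor, histone and zinc finger bins lie highest on both measures and HOX bins lowest.

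The TamR library was asked on which side of the midpoint between T16 and T24 it lay, bin by bin. It lay on the T24 side in 12892 of 26484 bins, or 48.7% (48.1 to 49.3%), and its correlation with the scores was 0.903 at T16 and 0.902 at T24, so it was no closer to one than to the other. Its distance from either was larger than the distance between them, with a median absolute difference of 1.42 from T16 and 1.48 from T24. In the fallen bins it lay on the T24 side in 50.6%, in the A to B bins in 51.6% and in the B to A bins in 55.4%. In the risen bins it did so in 39.4%, which combined 22.1% of those in A at T16 and 51.2% of those in B. The median score of the risen A bins was 11.3 at T16, 12.7 at T24 and 11.1 in TamR, so the upward shift of the A end was not seen in TamR. Measured from the mean of T1 and T4 instead, TamR lay in the direction of the difference in 49.4% of risen and 55.6% of fallen bins. Over all bins the median of TamR minus that mean was -0.22, on the side of a fall. Medians of TamR minus that mean were taken by its deciles and averaged, weighted by the number of fallen or risen bins. The result was -0.43 in fallen bins, against -0.38 in bins of the same deciles with smaller differences. In risen bins it was 0.07 against -0.18. For comparison, T0, T1 and T4 lay on the T24 side in 17.9%, 26.2% and 13.3% of the risen bins, and in 28.9%, 24.6% and 15.3% of the fallen ones.

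The gene families differed in this respect. Among the zinc finger bins of chromosome 19, TamR lay on the T24 side in 46 of the 49 that rose and 1 of the 7 that fell, and the median of TamR minus the mean of T1 and T4 was 5.12 by gene. Among the olfactory receptor bins it did so in 49 of 64 that rose and 0 of 8 that fell, so in both families TamR was mostly higher whichever way T24 had gone. Among the histone bins it did so in 0 of 6 that rose. These were in A at T16, and over all risen A bins the share was 22.1%. With bins that did not pass included, TamR lay on the T24 side in 69.2% of zinc finger, 60.1% of olfactory receptor and 35.3% of histone bins. Over all bins of the autosomes that share was 48.7%. Of the 8 long runs described above, TamR lay on the T24 side by its mean in 2 of the 4 that rose and 3 of the 4 that fell, and of the 6 stretches that changed compartment in 3.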

How the data were processed

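TCC was used to measure compartments in 5 parental T47D libraries and 1 TamR library. For every 100 Kb bin the authors deposited 1 score in each library. Their methods describe iterative bowtie2 alignment to hg19, HiCLib filters on fragments and low-coverage bins, truncation of the highest counts between chromosomes, iterative correction, exclusion of contacts in cis and extraction of the first eigenvector. The bowtie2 version listed by the study is 2.1.0, and HiCLib is listed by release date. The scores thus rest on contacts between chromosomes, and their scaling within each library makes differences relative. A score of 0 marks a bin without a value.

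Chromosome lengths matched GRCh37 for 23 of 23 chromosomes. GC content and HindIII sites were counted in that sequence, and gene starts were taken from GENCODE v44 mapped to GRCh37. The sequences printed are from the same genome. The 14 gene lists held written symbols or, for clustered families, all genes of a symbol pattern. A gene took the score of the bin of its start.

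The bins, lists and comparisons were chosen with earlier results of these data known. The genes and regions named were the 4 longest runs past the threshold of 1 per direction with at most 5 genes each, the 3 longest switched stretches per direction, the 5 largest single bins per direction and, of each list, the first 2 members and up to 4 with the largest difference, apart from a few genes that are not reported here. Intervals are Wilson intervals for shares and order-statistic intervals for medians. The functions were tested on simulated tracks. The measures relative to bins of like score, by equal rank and within chromosomes were added after the data were seen. Python 3.11.15, numpy 2.4.6, pandas 2.3.3, scipy 1.17.1 and matplotlib 3.10.9 were used.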

Additional observations from a re-analysis of the deposited data

How the results depend on the processing

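With 1 library per condition and no depth, the values describe these libraries, and differences close to the spread between other pairs of libraries cannot be told from variation between libraries. No paired analysis was possible because there is 1 library per condition. Neighbouring bins have like scores, so intervals over bins are too narrow. The cause of the changes listed here was not tested.

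The shares of bins that rose and fell were 24.3% and 25.9% with a threshold of 0.5, 1.15% and 0.374% with 2, 12.6% and 12.7% with T4 in place of T16, and 6.45% and 4.54% with 500 Kb bins. They were 6.74% and 4.69% relative to bins of like score and 6.74% and 5.94% at equal rank. Without the neighbours of bins lacking a score, 9.02% rose. With each chromosome left out in turn, 8.85 to 9.94% rose and 8.43 to 9.12% fell, and switches were 2.81 to 3.01% and 0.629 to 0.742%. The A to B share was 2.58% with 500 Kb bins. With the library median as border each direction held 1.51%, and at equal rank 1.49%, both directions being equal by construction. Without weak bins A to B was 0.889% and B to A 0.256%.

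With the mean of T1 and T4 as the scale, the contrast of extreme and middle deciles was 1.01 and the slope -0.0042, and after division of scores by the library SD the slope was -0.0082. The correlation with GC content was 0.057 by Spearman, 0.206 within deciles of T16, 0.185 within deciles of the mean of T1 and T4, 0.113 relative to bins of like score and 0.066 within chromosomes. For gene starts the values in that order were 0.038, 0.085, 0.079, 0.035 and 0.057. The correlations at 0.1 and 1 Mb were 0.475 and 0.310 relative to bins of like score, and 0.584 and 0.371 within chromosomes. TamR lay on the T24 side in 47.9% of risen bins at equal rank, and in 49.4% of risen and 55.6% of fallen bins against the mean of T1 and T4. Over all bins the median of TamR minus that mean was -0.22. Of the gene lists, the neuronal median went from 0.25 to -0.064 and the keratin median from 0.24 to -0.46 relative to bins of like score. Of the recomputed values of the main comparisons, 48 left their intervals over bins and 96 stayed within them. Most of the 96 came from leaving out 1 chromosome, which keeps most bins, so they had little room to move.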
